A study of Mus musculus with 48 samples.

Results

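Expression of the enzymes of de novo lipogenesis and of Srebf1 was followed through adipogenesis of 3T3-L1 cells with and without knockdown of PPARγ. The 8 genes were chosen by name, as every array probe whose target is ACLY, ACACA, FASN, SCD1, SCD2, ELOVL6, ELOVL5 or SREBF1 (gene symbols as printed on the array). Each of the 8 has 1 probe, out of 24613 probes for 18991 gene symbols. 3T3-L1 is an established mouse preadipocyte line that turns into fat cells under a hormone cocktail. The cells were transfected before differentiation with a 50 nM pool of siRNAs, either against Pparg (PPARγ KD) or non-targeting (control siRNA). After transfection the schedule of the cocktail was the same for both siRNAs. Dexamethasone (0.25 µM) with IBMX (0.5 mM) was given for 48 h from day -2, at confluence. The PPARγ ligand rosiglitazone (1 µM) with insulin (5 µg/ml) followed for 48 h from day 0. A culture received only the steps that preceded its harvest. RNA was taken on day -2 and on each day from 0 to 6, in 3 biological replicates for each siRNA and day, which gives 48 Illumina BeadChip arrays in 16 groups. Both siRNAs are pools in 1 cell line, and no culture without siRNA was analysed here.

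De novo lipogenesis turns surplus carbon into fatty acids. ACLY cleaves cytosolic citrate to acetyl-CoA, ACACA carboxylates it to malonyl-CoA, and FASN builds palmitate from both. ELOVL6 and ELOVL5 are elongases, the former mainly of saturated and monounsaturated and the latter mainly of polyunsaturated chains, and SCD1 and SCD2 are stearoyl-CoA desaturases that make monounsaturated fatty acids. Srebf1 encodes SREBP-1, a membrane-bound transcription factor that is released by proteolysis and activates many genes of the pathway.

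The stretch before the transcription start of 3 members is shown because these are the members, among those with an entry in the RefSeq promoter table, that were lower in the PPARγ KD on days 4 to 6. Each line holds the 250 bases upstream of the start, 5′ to 3′ on the gene's strand, build GRCm38.p6. Capitals mark CCAAT boxes (CCAAT), GC boxes (GGGCGG) and E-boxes (CACGTG), which read ATTGG and CCGCCC for the first and second kind where the box lies on the other strand.
Fasn, chr11:120824548-120824797, minus strand: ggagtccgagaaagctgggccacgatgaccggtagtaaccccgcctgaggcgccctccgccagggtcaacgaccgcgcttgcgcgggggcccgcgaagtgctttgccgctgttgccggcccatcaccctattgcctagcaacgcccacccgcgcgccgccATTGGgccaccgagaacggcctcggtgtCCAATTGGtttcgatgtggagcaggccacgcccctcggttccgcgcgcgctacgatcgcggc
Acly, chr11:100528001-100528250, minus strand: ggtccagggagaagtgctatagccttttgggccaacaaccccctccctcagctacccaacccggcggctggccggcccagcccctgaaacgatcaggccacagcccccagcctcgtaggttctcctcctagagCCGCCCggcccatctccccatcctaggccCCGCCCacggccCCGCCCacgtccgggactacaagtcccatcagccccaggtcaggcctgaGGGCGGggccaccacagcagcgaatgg
Elovl5, chr9:77917115-77917364, plus strand: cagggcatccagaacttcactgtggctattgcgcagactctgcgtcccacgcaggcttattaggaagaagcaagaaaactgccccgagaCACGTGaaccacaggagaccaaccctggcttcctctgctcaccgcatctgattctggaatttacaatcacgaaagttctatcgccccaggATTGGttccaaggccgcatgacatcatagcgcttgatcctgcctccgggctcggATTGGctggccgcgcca

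The Fasn stretch holds 3 CCAAT boxes on either strand, with first bases at -90, -62 and -59 from the start, and the last 2 of these overlap each other. CCAAT boxes bind NF-Y, which often works beside SREBP-1. The Acly stretch holds 4 GC boxes and the Elovl5 stretch 1 E-box and 2 CCAAT boxes. Of the 8 members, 6 have an entry in the table (8 windows, since Srebf1 has 3), and Scd1 and Scd2 have none. A CCAAT box was in 4 of these 8 windows against 33.8% of all 32851 windows of the table, a GC box in 3 against 32.7%, and an E-box in 1 against 6.02%. The letters of the sterol regulatory element (TCACCCCAC, 0.496% of all windows) and of the direct repeat that binds PPARγ with RXR (AGGTCANAGGTCA, 0.0335% of all windows) were in none of the 8, and a single AGGTCA (14.0% of all windows) was in those of Acly and Elovl6. These matches describe the letters of 250 bases and are no record of binding.

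The knockdown held in all arrays. On the brightest of 3 Pparg probes the 24 control arrays had a median normalized log2 intensity of 11.54 (highest 12.22). The 24 KD arrays ranged from 7.58 to 9.81 (median 9.35), below all control arrays. The cells carried the markers of their label. On day -2, 6 of 6 fibroblast markers and 1 of 7 fat cell markers (LPL) were above background on each array, and none of 6 markers of blood, endothelial or epithelial cells was above background on any of the 48 arrays. A probe was called above background where its detection p was under 0.01, and 33.4% to 40.4% of all probes passed on an array. Replicate 3 gave the smallest shares, at most 35.4%, against at least 36.8% in the other replicates.

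Over all 8 days, 5 of the 8 members were lower in the PPARγ KD (SCD1, FASN, ACLY, ELOVL5 and SCD2) and 1 was higher (ACACA). ELOVL6 passed in neither direction, nor did SREBF1, whose probe was not above background on any array. Of all 24613 probes, 6.74% were lower and 6.37% higher. On days 4 to 6, fitted on their own 18 arrays, the 5 lower members were the same genes, against 3.77% of all probes. No member was higher there by limma with Bonferroni adjustment (1.54% of all probes were), while ACACA passed at an unadjusted p of 0.05 and with Benjamini-Hochberg adjustment. The median log2 difference of the 8 members, with the SREBF1 probe counted in, was -0.19 over all days and -0.37 on days 4 to 6, beside -0.03 and -0.01 for all probes. The differences are those of the limma fit with a term for the replicate number, and an adjusted p is Bonferroni over all probes.

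**Figure D1:**
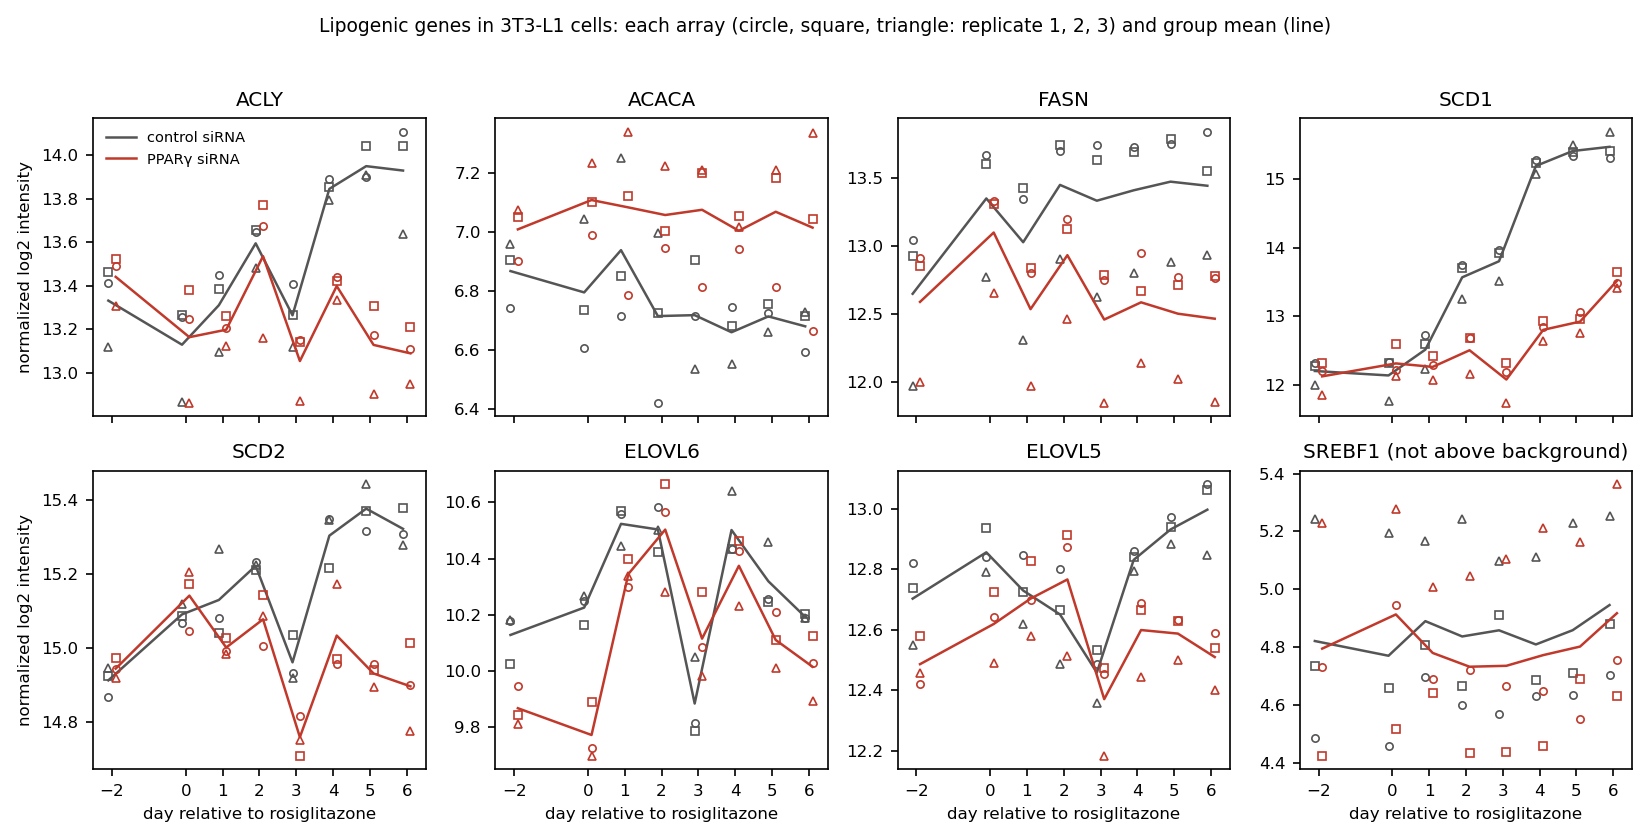
Normalized log2 intensity (vertical axis, own scale in each panel) of the 8 genes against the day relative to rosiglitazone, with each array as a symbol (circle, square and triangle for replicates 1, 2 and 3) and group means as lines, grey for control siRNA and red for PPARγ siRNA. The SCD1 lines part from day 2 on, replicate 3 of FASN lies below the other replicates in both siRNAs, and the SREBF1 probe was not above background on any array.

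SCD1 showed the largest difference of the 8. On day -2 its log2 intensities were 12.32, 12.28 and 12.01 in the control replicates and 12.21, 12.32 and 11.85 in the KD, so the groups overlapped. On day 1 they were 12.72, 12.60 and 12.23 in the control and 12.29, 12.42 and 12.08 in the KD, still with overlap. From day 2 on each KD array lay below each control array.
The day 2 values were 13.75, 13.71 and 13.25 in the control against 12.68, 12.68 and 12.15 in the KD. On day 4 they were 15.27, 15.23 and 15.07 against 12.85, 12.93 and 12.63. On day 6 they were 15.31, 15.40 and 15.69 against 13.48, 13.64 and 13.42. Both siRNAs gained most between days 3 and 4, the KD from a lower level (group means 12.08 and 12.80, against 13.80 and 15.19 in the control).
The difference was -1.22 over all days (SE 0.04, adjusted p = 3.8e-22) and -2.27 on days 4 to 6 (SE 0.07, adjusted p = 1.07e-12), which is 4.84-fold lower in the KD. By day it was -0.08 on day -2, 0.18 on day 0 and -0.25 on day 1, none of which passed. It then reached -1.06, -1.72, -2.39 and -2.48 on days 2 to 5 and -1.95 on day 6, all of which passed. The call of day 2 was lost without replicate 2 (-1.08, adjusted p = 0.067).

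**Figure D2:**
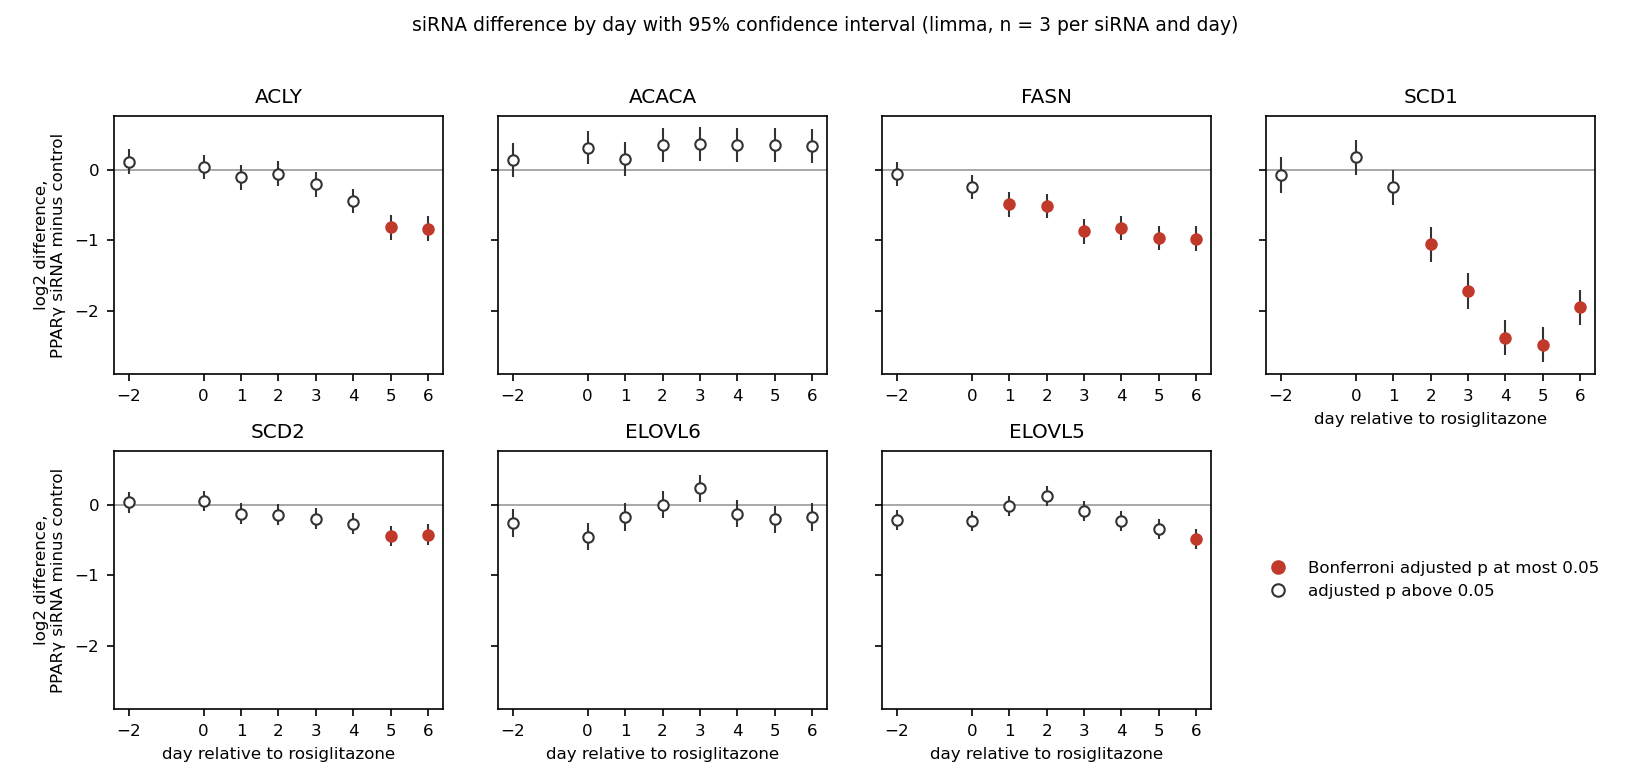
Log2 difference between PPARγ siRNA and control siRNA (vertical axis, shared scale) on each day for the 7 genes measured above background, with 95% confidence intervals from the limma fit and filled points where the Bonferroni adjusted p was at most 0.05. FASN was called on days 1 to 6, SCD1 on days 2 to 6, ACLY and SCD2 on days 5 and 6, ELOVL5 on day 6, and ACACA and ELOVL6 on none.

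In the course under control siRNA, SCD1 was 3.26 higher on day 6 than on day -2 (SE 0.12, adjusted p = 2.73e-21), a 9.61-fold rise. In the KD the same contrast was 1.39 (SE 0.12, adjusted p = 3.87e-09), or 2.62-fold. The order of days under control siRNA ran from day 6 (15.47) over day 5 (15.41), day 4 (15.19), day 3 (13.80), day 2 (13.57) and day 1 (12.51) to day -2 (12.20) and day 0 (12.14). The steps between days 4 and 3, days 2 and 1, and days 1 and -2 exceeded the 95% interval of a difference between 2 days (0.25), and the other neighbours did not differ beyond it. In the KD only the steps from day 6 to day 5 and from day 4 to day 2 did so, and the levels of days 2, 0, 1, -2 and 3 ran within such steps of each other (12.50 to 12.08).

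SCD2, the other stearoyl-CoA desaturase above background here, differed less and kept a bright signal on all arrays. Its 24 control arrays ranged from 14.87 to 15.44 (median 15.21) and its 24 KD arrays from 14.71 to 15.21 (median 14.97). On day -2 the values were 14.87, 14.92 and 14.95 in the control and 14.94, 14.97 and 14.92 in the KD. On day 5 they were 15.32, 15.37 and 15.44 against 14.96, 14.94 and 14.89, with no overlap.
The difference was -0.19 over all days (SE 0.03, adjusted p = 1.69e-04) and -0.38 on days 4 to 6 (SE 0.05, adjusted p = 0.0312). By day it passed on day 5 (-0.45) and day 6 (-0.43). The calls over all days and on days 4 to 6 were lost whichever replicate was left out, with values of -0.17 to -0.21 and of -0.37 to -0.41, and so were those of days 5 and 6. SCD2 and, late in the control cells, SCD1 were among the brightest probes. Only 18 to 87 probes of an array were brighter than SCD2, whose unnormalized intensities reached 48093 where the highest of any probe was 67066, and how far the top of the range compresses a fold was not tested.

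The difference was larger for SCD1 than for SCD2 by 1.03 on the log2 scale (-1.22 against -0.19). Pairing each KD array with the control array that shared its day and replicate gave 24 pairs, and SCD1 lay further below its control than SCD2 in 21 of them. The 3 replicate means of this gap ran from -0.96 to -1.06. A two-sided permutation test that exchanged signs within pairs gave p = 1e-05, the smallest that 100000 resamples can give, and an adjusted p of 2e-05 over the 2 gene pairs compared. For ELOVL6 and ELOVL5 the same gap was 0.04 (-0.15 against -0.19), the replicate means ran from -0.09 to 0.13, and the permutation test gave p = 0.392 (adjusted p = 0.392). This mean held gaps of opposite sign, given as a description: ELOVL6 lay further below its control than ELOVL5 in 9 of 9 pairs of days 0 to 2 (mean gap -0.16), and in 0 of 3 pairs of day 3 (0.32), 2 of 9 of days 4 to 6 (0.18) and 0 of 3 of day 6 (0.31). The 24 pairs come from 3 replicate courses, so neighbouring days of a course need not be independent. The permutation test treats all 24 pairs as independent, so its p-values can be too small.

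**Figure D3:**
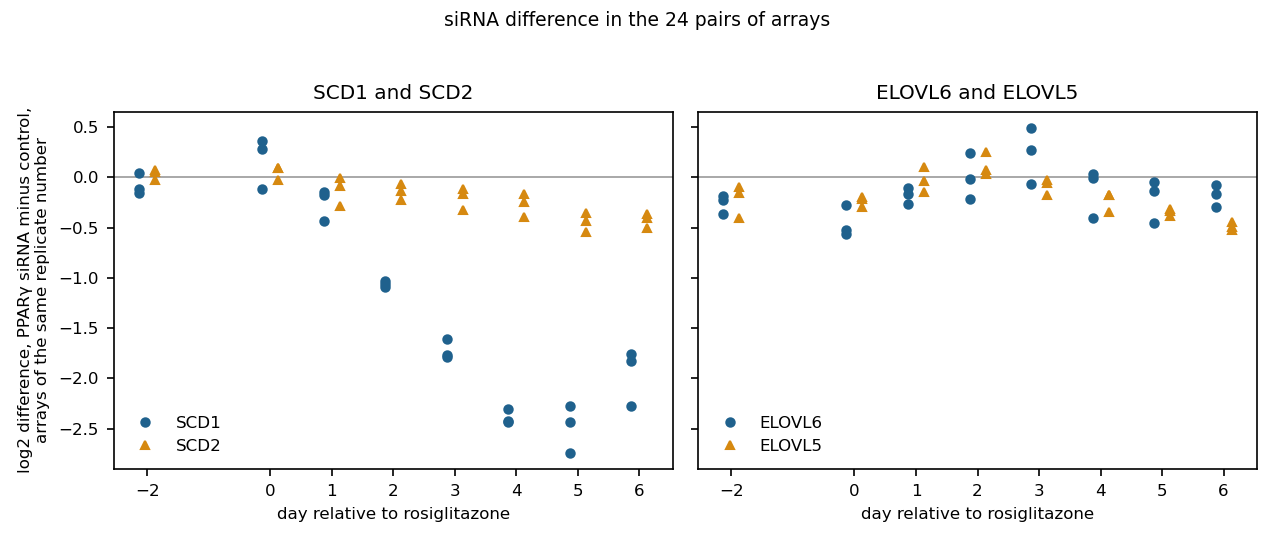
Log2 difference between PPARγ siRNA and control siRNA (vertical axis) in each of the 24 array pairs (1 KD and 1 control array from a shared replicate and day), by day, for the desaturases SCD1 and SCD2 (left) and the elongases ELOVL6 and ELOVL5 (right). From day 2 on the SCD1 points lie below all SCD2 points, whereas the ELOVL6 and ELOVL5 points overlap on each day but day 6.

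FASN passed on each day from day 1 on, although its calls of days 1 and 2 held under only 2 and 3 of the 10 alternatives (that of SCD1 on day 2 held under 9). On day -2 its log2 intensities were 13.05, 12.93 and 11.97 in control replicates 1, 2 and 3 and 12.91, 12.85 and 12.00 in the KD. On day 3 they were 13.74, 13.64 and 12.62 against 12.75, 12.78 and 11.84. On day 6 they were 13.84, 13.55 and 12.94 against 12.76, 12.78 and 11.85. Replicate 3 lay below the mean of the others by 0.93 in the control and 0.79 in the KD (averaged over days), so the groups overlapped on day 3 although each replicate's KD array was well below its own control array.
FASN was lower in the KD in 23 of 24 pairs. The difference over all days was -0.62 (SE 0.03, adjusted p = 1.57e-17), with replicate means of -0.67, -0.66 and -0.53. On days 4 to 6 it was -0.93 (SE 0.05, adjusted p = 7.25e-08), or 1.90-fold lower. By day it ran from -0.06 on day -2 and -0.25 on day 0, which did not pass, to -0.49, -0.52, -0.88, -0.83, -0.97 and -0.98 on days 1 to 6, which did. Without the replicate term no FASN call was left (adjusted p = 1 over all days, on days 4 to 6 and on each of days 1 to 6). The calls of days 1 and 2 were also lost whichever replicate was left out, under quantile normalization (adjusted p = 0.0956 and 0.102), without background correction (0.417 and 0.139) and with a block by day (0.689 and 0.363).

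Under control siRNA FASN had risen by day 0, before rosiglitazone. The rise from day -2 to day 0 was 0.70 in the control (adjusted p = 1.66e-05) and 0.51 in the KD (adjusted p = 0.0159). In the control the level stayed up, with 0.80 on day 6 over day -2 (adjusted p = 7.01e-07). In the KD the day 6 level was -0.12 against day -2 (adjusted p = 1). The order of days in the control ran from day 5 (13.47) over days 2, 6, 4, 0 and 3 (13.33) with no step beyond the 95% interval of 0.17, then to day 1 (13.03) and day -2 (12.65), both beyond it. In the KD day 0 (13.10) and day 2 (12.93) were highest, and the other 6 days lay between 12.59 and 12.46 with no step beyond the interval.
The 3 probes of other genes whose 16 group means ran most like those of FASN, among 9217 probes above background on at least 24 arrays, were both probes of CPT2 (r = 0.98 each), which encodes a carnitine palmitoyltransferase of mitochondrial fatty acid import, and a probe of LOC100046684 (r = 0.97). These correlations describe 16 group means that share their libraries.

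ACLY separated late. On day 2 its values were 13.65, 13.66 and 13.48 in the control and 13.68, 13.77 and 13.16 in the KD, with overlap. On day 4 they were 13.89, 13.85 and 13.79 against 13.44, 13.42 and 13.34, and on day 6 14.11, 14.04 and 13.64 against 13.11, 13.21 and 12.95. From day 4 on the groups did not overlap.
The difference was -0.29 over all days (SE 0.03, adjusted p = 3.24e-07) and -0.70 on days 4 to 6 (SE 0.05, adjusted p = 8.27e-06), or 1.63-fold lower. Day 5 (-0.82) and day 6 (-0.84) passed, and day 4 (-0.45) had an adjusted p of 0.202. On days -2 to 2 it lay between -0.11 and 0.11. In the control cells ACLY was 0.60 higher on day 6 than on day -2 (adjusted p = 8.73e-04), while the KD gave -0.35 (adjusted p = 1). The call of day 6 was lost without replicate 1 (-0.77, adjusted p = 0.0716) and the rise under control siRNA without replicate 1 or 2 (0.55 and 0.60, adjusted p = 1 each). Without the replicate term the all-days call (adjusted p = 0.0855) and those of days 5 and 6 (0.1 and 0.069) were lost, and that of days 4 to 6 was not.

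ACACA differed in the other direction, on a probe close to background. Its control arrays ranged from 6.42 to 7.25 (median 6.73) and its KD arrays from 6.66 to 7.34 (median 7.05). It was above background on 19 of 24 control and 24 of 24 KD arrays. The difference over all days was 0.29 (SE 0.04, adjusted p = 8.4e-04), and the KD array was higher in 24 of 24 pairs. By day the values ran from 0.14 to 0.36 and none passed, and on days 4 to 6 it was 0.34 (SE 0.07, adjusted p = 1). The all-days call was lost without the replicate term (adjusted p = 0.335) and without replicate 2 (0.28, adjusted p = 1), and without background correction the value was 0.15.

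Of the elongases, ELOVL5 was lower late in the course and ELOVL6 passed on no day. ELOVL5 values on day 6 were 13.08, 13.06 and 12.85 in the control and 12.59, 12.54 and 12.40 in the KD, with no overlap. Its difference was -0.19 over all days (SE 0.02, adjusted p = 1.06e-04) and -0.36 on days 4 to 6 (SE 0.04, adjusted p = 0.00649), and by day it passed on day 6 (-0.49). All of these calls were lost whichever replicate was left out, with -0.17 to -0.22 over all days and -0.34 to -0.37 on days 4 to 6, and the late call was lost under quantile normalization (-0.26, adjusted p = 0.242).
ELOVL6 values on day 0 were 10.25, 10.16 and 10.27 in the control and 9.73, 9.89 and 9.70 in the KD, with no overlap. On day 3 they were 9.81, 9.79 and 10.05 against 10.08, 10.28 and 9.98, with overlap. The difference was -0.15 over all days (SE 0.03, adjusted p = 1) and ran from -0.45 on day 0 (adjusted p = 0.819) to 0.23 on day 3 (adjusted p = 1). In the KD cells ELOVL6 rose by 0.73 from day 0 to day 2 (adjusted p = 1.08e-04), and the control cells gave 0.28 (adjusted p = 1). Whether these rises differ between the siRNAs was not tested.

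SREBF1 was not above background on any of the 48 arrays, also not at a detection p of 0.05. Its detection p ranged from 0.482 to 0.988 on the control and from 0.619 to 0.996 on the KD arrays, and its unnormalized intensities from 73.5 to 99.0 and from 61.4 to 91.6. No fold is given. This probe therefore holds no measurement of Srebf1 mRNA in either siRNA, and no pattern was compared with it.

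Counted by day, 0 members were lower on day -2 (limma; 2 at an unadjusted p under 0.05; 0.674% of all probes) and 0 on day 0 (3 at an unadjusted p under 0.05; 1.37%). On day 1 it was 1 (FASN; 1.49%). On days 2, 3 and 4 it was 2 each, FASN and SCD1 (4.18%, 2.29% and 2.13%). On day 5 it was 4, with ACLY and SCD2 (2.68%), and on day 6 it was 5, with ELOVL5 (3.09%). Without the replicate term the 16 combinations of member and day fell to 5. The siRNA difference itself grew from days 0 to 2 to days 4 to 6 in 3 members, SCD1 (-1.89, SE 0.10, adjusted p = 3.62e-16), ACLY (-0.66, SE 0.07, adjusted p = 7.22e-07) and FASN (-0.51, SE 0.07, adjusted p = 3.18e-04), against 2.82% of all probes. The FASN call was lost whichever replicate was left out (-0.49 to -0.54, adjusted p = 0.0763 to 0.72), and the ACLY and FASN calls were lost without the replicate term (adjusted p = 0.141 and 1). SCD2 and ELOVL5 gave -0.31 each (adjusted p = 0.211 and 0.132), ELOVL6 0.04 and ACACA 0.08 (adjusted p = 1 each).

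Along the control course 4 members were higher on day 6 than on day -2 (ACLY, FASN, SCD1 and SCD2; 4.11% of all probes), of which SCD2 (0.41, adjusted p = 0.0485) was lost whichever replicate was left out, and along the KD course 1 was (SCD1; 2.49%). On day 3 several members lay below the mean of days 2 and 4, a contrast chosen after the values were seen and given without a test. For ELOVL6 it was -0.62 ± 0.09 (SD, n = 3) in the control and -0.32 ± 0.08 in the KD, and for ACLY -0.46 ± 0.08 and -0.41 ± 0.04, with the group mean of day 3 below those of both neighbouring days. Of the 9217 probes above background on at least 24 arrays, 1.27% (control) and 4.49% (KD) lay lower than ELOVL6. For ACLY these shares were 3.37% and 2.63%. SCD1 gave -0.57 ± 0.08 in the KD, where day 3 was also below both neighbours and 1.06% of the probes lay lower. In the control its -0.58 ± 0.06 was no dip, since the level rose from day 2 (13.57) to day 3 (13.80) and further to day 4 (15.19). SCD2 and ELOVL5 gave -0.28 to -0.31 in both siRNAs, also with day 3 below both neighbours. Of the 9217 probes 10.1% and 11.5% lay lower than these in the control, and 5.58% and 4.85% in the KD. FASN gave -0.10 ± 0.13 in the control and -0.30 ± 0.17 in the KD, again with day 3 below both neighbours. ACACA gave 0.03 ± 0.24 and 0.04 ± 0.15. Whether the day 3 arrays were processed together is not given in the sources used here.

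Other genes of the pathway were listed by role. Of 43 listed symbols 39 are on the array and 28 were above background on at least 1 array. Over all days 13 of the 39 were lower in the KD and 2 higher (median -0.06), beside 6.74% and 6.37% of all probes. On days 4 to 6 11 were lower (median -0.06), beside 3.77% of all probes. The 39 and both medians include the genes that were not above background. Values are for the brightest probe of a gene.
Among the genes that supply carbon, 3 of 4 were lower over all days. SLC25A1, the mitochondrial citrate carrier, gave -0.84 (SE 0.04, adjusted p = 1.42e-17), ACSS2, which makes acetyl-CoA from acetate, -0.82 (SE 0.04, adjusted p = 1.58e-16), and cytosolic malate dehydrogenase MDH1 -0.71 (SE 0.04, adjusted p = 1.1e-13). On days 4 to 6 SLC25A1 gave -1.32 and ACSS2 -2.01, and MDH1 was 2.01-fold lower. The MDH1 calls were lost without the replicate term (adjusted p = 1). ACSS1 was not above background.
Among the carboxylase partners THRSP (Spot 14), a lipogenic protein of fat and liver, gave -2.67 over all days (SE 0.06, adjusted p = 1.09e-29) with 15 of 24 control and 4 of 24 KD arrays above background, so the size is uncertain. On days 4 to 6, with 9 of 9 control and 4 of 9 KD arrays above background, it was at least 12.3-fold lower when each KD array was held at no less than its dimmest signal above background (fitted difference -4.13). HLCS, which attaches biotin to the carboxylases, gave -0.35 (adjusted p = 8.23e-08), and MID1IP1, an activator of acetyl-CoA carboxylase, 0.30 (adjusted p = 4.07e-06), a call lost without replicate 2 or the replicate term (adjusted p = 0.13 and 1). The second carboxylase, ACACB, was not above background on any array.

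In the elongation cycle 3 of 9 genes were lower: PTPLA (-0.32), HSD17B12 (-0.32) and GPSN2 (-0.30), a dehydratase and the reductases of the cycle. PTPLAD1, another dehydratase, gave 0.03 over all days and 0.12 on days 4 to 6 (adjusted p = 1 each). The dimmer probes of PTPLA and GPSN2 did not pass (-0.11, 0.01 and -0.14). On days 4 to 6 the brightest probes of PTPLA, HSD17B12 and GPSN2 gave -0.41, -0.69 and -0.61. The all-days call of GPSN2 was lost without replicate 1 or 3 (adjusted p = 1 and 0.331) and that of HSD17B12 without replicate 1 or the replicate term (0.216 and 1). The calls of GPSN2 and PTPLA on days 4 to 6 were lost whichever replicate was left out. Among the desaturation genes FADS2 was lower, with -0.28 over all days (lost without replicate 1 or 3, adjusted p = 0.0698 and 0.745) and -0.80 on days 4 to 6, while FADS1 (-0.19, adjusted p = 0.283) did not pass and SCD3 and SCD4 were not above background.
Of the 6 genes of SREBP processing INSIG1, which retains SREBP in the endoplasmic reticulum and is itself an SREBP target, was lower (-1.39 over all days, SE 0.05, adjusted p = 3.77e-23; -2.41 on days 4 to 6), and SCAP, the escort of SREBP, was higher (0.26, adjusted p = 0.00283), a call lost without replicate 2 or 3 (adjusted p = 1 and 0.99) or the replicate term (1). The second brightest INSIG1 probe gave -1.48 and the third was not above background. SREBF2, which encodes the related SREBP-2, gave -0.01 (adjusted p = 1).
Among 11 factors that act on lipogenic promoters 3 were lower: NR1H3 (the oxysterol receptor LXRα, -1.82, SE 0.05, adjusted p = 4.69e-27), RXRA (-0.61, SE 0.04, adjusted p = 7.14e-14), the partner of both PPARγ and LXRα, and MLX (-0.32, SE 0.04, adjusted p = 4.38e-04), the partner of ChREBP. The MLX call was lost without replicate 2 or the replicate term (adjusted p = 1 each). On days 4 to 6 NR1H3 gave -2.47 and RXRA -0.50 (adjusted p = 0.026). MLX did not pass there (-0.51, adjusted p = 0.14), although it did under some alternatives. This RXRA call was lost whichever replicate was left out, under quantile normalization (adjusted p = 0.0712), with a block by day (0.165) and without the replicate term (0.295). The ChREBP probe (WBSCR14) was not above background.

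**Figure D4:**
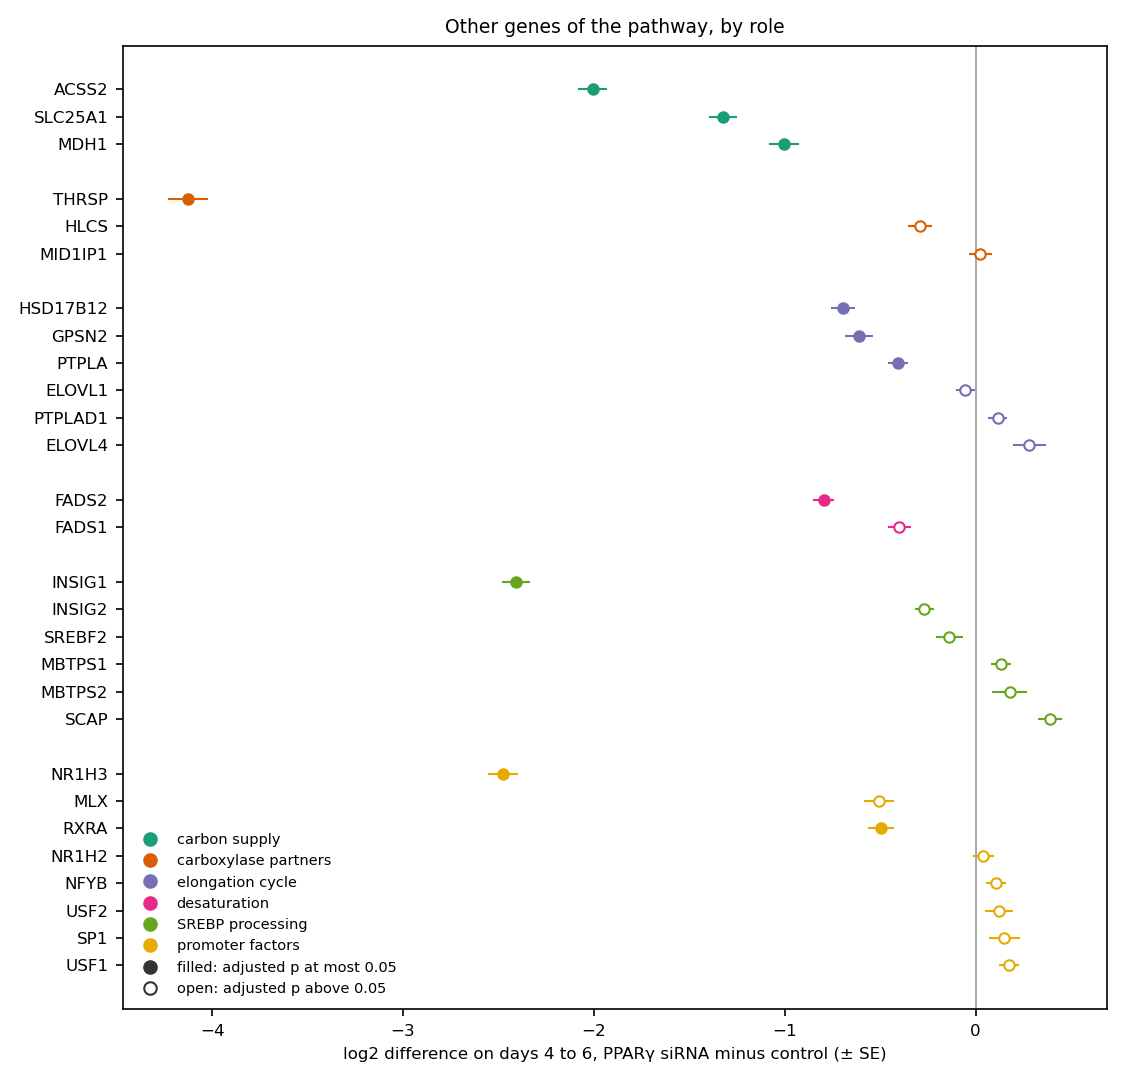
Log2 difference on days 4 to 6 between PPARγ siRNA and control siRNA (horizontal axis, ± SE) for the brightest probe of the 28 other pathway genes above background on at least 1 array, coloured by role and filled where the Bonferroni adjusted p was at most 0.05. THRSP (above background on 4 of 9 KD arrays), NR1H3, INSIG1 and ACSS2 lie at or below -2.01.

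Fat cell markers were also lower in the PPARγ KD. The summed normalized intensity of the 7 markers (ADIPOQ, FABP4, PLIN, CFD, LPL, CD36 and CIDEC) ranged from 10465 to 12164 on the control and from 4531 to 5100 on the KD arrays of day -2. The sum of that day rests on LPL, since the other 6 were above background on no day -2 array of either siRNA. On days 4 to 6 it ranged from 102367 to 140273 in the control and from 13792 to 32877 in the KD. Over all days 7 of 7 were lower in the KD and on days 4 to 6 6 were, with ADIPOQ at -3.32 (SE 0.05, adjusted p = 4.78e-17). The change of this difference along the course was mixed among the markers. From days 0 to 2 to days 4 to 6 the difference shrank for ADIPOQ (1.62) and LPL (0.53, brightest probe). It grew for PLIN (-0.94). The other markers did not pass in this contrast, with CD36 at -1.06, FABP4 at -0.91, CFD at -0.82 and CIDEC at 0.53. FABP4, PLIN and CD36 were above background on no KD array of days 4 to 6. On the control arrays of those days PLIN was above background on 9 of 9, and FABP4 and CD36 on 6 of 9 each. CD36 was the marker that did not pass there (adjusted p = 0.163). The summed intensity of the 6 fibroblast markers ranged from 79872 to 95512 in the control and from 84965 to 107894 in the KD on those days. Over all days 3 of the 6 were higher in the KD, DLK1 (0.43, adjusted p = 1.25e-11), THY1 (0.37, adjusted p = 9.91e-08) and COL3A1 (0.36, adjusted p = 0.00564), and on days 4 to 6 COL1A2 was (0.47, adjusted p = 0.0479). In a whole culture, fewer fat cells and less of an mRNA in each cell cannot be told apart, and the part of the marker shift in the lipogenic differences was not tested.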

How the data were processed

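3T3-L1 RNA from 48 cultures (2 siRNAs, 8 days, 3 replicates) was hybridized to Illumina MouseRef-8 v1.1 arrays. The authors deposited unnormalized mean bead intensity per probe from BeadStudio 3.3.7 and, per the file headers, a detection value as a fraction (1 minus the detection p). Intensities were background-corrected here with normexp from the detection p (limma 3.58.1, R 4.3.3, offset 16), scaled on rank-invariant probes as the methods name it (factors 0.730 to 1.58) and taken to log2. One limma model (lmFit, eBayes) over all 24613 probes fitted the 16 group means with a block for replicate. The study's methods remove a batch effect without naming the batch, and the replicate number was used in its place here. Days 4 to 6 were also fitted alone. A call is a Bonferroni adjusted p of at most 0.05.

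Pairing by replicate number was checked as the correlation of deviations from the group means between the 2 arrays of a day and number. It was 0.63 to 0.93 over the 9217 probes above background on at least 24 arrays, and 0.02 to 0.90 over all probes (above 0.1 in 23 of 24 pairs). No 2 arrays held identical values. The fit was tested on simulated data.

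Members and lists were chosen with earlier results of these data known. Other pathway genes are named by role where called over all days or past 1.5-fold, at most 4 a role, and a few more were named after their values were seen. Members had 16 to 78 beads per array. Array number limits precision. Promoters came from RefSeq (GRCm38.p6, Python 3.11.15). Probe sequences were not used here. The alternatives tried were quantile normalization, no background correction, an offset of 50, no block, a block by day, Benjamini-Hochberg adjustment, leaving out dim probes (above background on under 3 arrays), leaving out each replicate, and a detection p of 0.05.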

Additional observations from a re-analysis of the deposited data

Results flagged for a closer look

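The siRNA difference itself changed between the early days (0 to 2) and the late days (4 to 6), by the interaction contrast of the limma fit, in 3 of the 8 lipogenic genes. It moved by -1.89 for SCD1 (late -2.27 ± 0.18, early -0.38 ± 0.14; SD, n = 3), by -0.66 for ACLY (late -0.70 ± 0.03, early -0.05 ± 0.07) and by -0.51 for FASN (late -0.93 ± 0.05, early -0.42 ± 0.11). All 3 replicates moved this way in each of the 3 genes, although the FASN call was lost whichever replicate was left out.

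The same contrast was lower in 8 of the 39 other pathway genes on the array, beside 2.82% of all probes. These are among the genes named for their all-days difference. It was -2.73 for THRSP (adjusted p = 3.92e-17), -1.89 for ACSS2 (adjusted p = 1.27e-16), -1.61 for INSIG1 (adjusted p = 5.95e-13) and -0.90 for NR1H3 (adjusted p = 1.61e-05). It was -0.85 for FADS2, -0.71 for HSD17B12, -0.65 for SLC25A1 and -0.60 for MID1IP1. The calls of THRSP, ACSS2, INSIG1 and FADS2 held under each alternative, although THRSP was above background on 4 of 24 KD arrays, so its size is uncertain. That of SLC25A1 was lost with a block by day (adjusted p = 0.11) and without replicate 1 or 2 (1 and 0.112), that of HSD17B12 without the replicate term or replicate 1 (1 and 0.0633), that of MID1IP1 without the replicate term or replicate 2 or 3 (1, 0.109 and 0.106), and that of NR1H3 without replicate 1 (0.127). MID1IP1, which was higher in the KD over all days, gave 0.03 on days 4 to 6 (adjusted p = 1). Groups of 3 arrays were too small for a check of single outlying arrays.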

How the results depend on the processing

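Of 1592 comparisons with the reported values, 1382 kept their direction and side of the threshold (counts within 1.5 times), 36 changed sign without a call on either side, 118 lost a call, 34 gained one and 22 counts moved further. Leaving out the replicate block was the setting with most losses (35). Without it the members lower over all days were 2 in place of 5 and those higher 0 in place of 1, those lower on days 4 to 6 were 2 in place of 5, the lower combinations of member and day 5 in place of 16, the members whose difference grew 1 in place of 3, and those higher on day 6 under control siRNA 1 in place of 4. The pairing check is given with the processing. A block by day left 3 lower members on days 4 to 6. Leaving out 1 replicate at a time gave 3 lower members over all days, 0 to 1 higher, 3 lower on days 4 to 6, 10 to 11 lower combinations, 2 with a grown difference and 2 to 3 higher under control siRNA. With Benjamini-Hochberg adjustment 2 combinations were higher (both ACACA), 1 member was higher on days 4 to 6 and 5 had a grown difference, as did 5 with dim probes left out, where fewer probes were tested. The calls of SCD1 over all days and on days 4 to 6, and that of ACLY on days 4 to 6, held under each alternative. Where no construction of the alternative shows it, the cause was not tested. A block by BeadChip was not run, since the file headers do not name the chip. Values near background (ACACA) and near the top of the range (SCD1, SCD2) are the least certain in size.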
